A study of Mus musculus with 2 samples.

Results

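Parathyroid hormone-related protein (PTHrP) and the genes of cartilage mineralization were described in RNA from mouse limbs at embryonic day 14.5, a stage at which the skeleton of the limb is largely cartilage. The 10 genes were chosen by name and matched by stable gene identifier: Pthlh and Pth1r of the signal, Alpl, Enpp1, Phospho1, Slc20a1 and Panx3 of phosphate, pyrophosphate and channel function, and Spp1, Ibsp and Mgp of the mineral-binding matrix. All 10 had a row among the 43346 mouse gene rows of both tables. The samples were 2 libraries of rRNA-depleted polyadenylated RNA longer than 200 nucleotides; each came from the pooled limb tissue of male and female C57BL/6J embryos. They form 1 group with no treatment or mutant allele, so the data give levels within the tissue and differences between the 2 libraries. Both libraries carry 1 donor identifier and separate biosample identifiers, and which limbs were taken is not stated. Intervals of differences between genes rest on the spread between these 2 libraries, which may be technical. That spread is taken from each gene and moderated towards that of all genes fitted. Intervals and tests of library ratios rest on counting error alone. In whole tissue, fewer cells of a type and less RNA per cell cannot be told apart.

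In growing cartilage, PTHrP is made by early chondrocytes near the ends of the element and acts through the receptor PTH1R on proliferating and prehypertrophic cells, where it delays hypertrophy. Indian hedgehog from prehypertrophic cells in turn sustains PTHrP, which closes a feedback loop that sets the length of the proliferating columns. Mineral forms later, when the phosphatases ALPL and PHOSPHO1 raise local phosphate and ALPL also splits pyrophosphate, a mineral inhibitor that ENPP1 makes and ANK exports.

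The gene rows held 110172148 and 103363136 deposited counts in replicates 1 and 2, and the 10 genes had between 1320 and 23468 counts per library. The floor for an undetected gene was 3 counts, equal to 0.0272 and 0.0290 CPM (counts scaled to the library total), and covers counting error only. The mean fragment length implied by the tables was 200.0 nucleotides in replicate 1 and 227 in replicate 2. All 8 chondrocyte markers and all 6 hypertrophic markers reached 1 TPM (transcripts relative to all transcripts, scaled by length) in both libraries, with median levels of 143 and 169 TPM for the former and 26.5 and 32.2 TPM for the latter in replicates 1 and 2. Osteoblast markers reached 1 TPM for 6 of 7 genes, macrophage markers for 7 of 7 and osteoclast markers for 3 of 7. Those 3 were Ctsk at 54.6 and 44.1 TPM, Acp5 at 18.0 and 17.0 TPM and Mmp9 at 14.0 and 16.6 TPM. Calcr, Ocstamp and Dcstamp of the same list were at or below 0.31 TPM.

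Start sites are shown first, for the genes whose transcripts or library ratios the results turn on. Windows of 250 bases before a RefSeq start (GRCm38.p6, the assembly of mm10) were found for 8 of the 10 genes, 13 windows in all, and Mgp and Panx3 had no entry. Alpl, on the minus strand, has an upstream start, with the window chr4:137796385-137796634, and a start within the gene, with the window chr4:137766476-137766725. These stretches are shown because all but a few Alpl reads were assigned to transcripts from the upstream start. Capitals mark TTTATA, the reverse complement of the TATA box TATAAA.
Alpl upstream start: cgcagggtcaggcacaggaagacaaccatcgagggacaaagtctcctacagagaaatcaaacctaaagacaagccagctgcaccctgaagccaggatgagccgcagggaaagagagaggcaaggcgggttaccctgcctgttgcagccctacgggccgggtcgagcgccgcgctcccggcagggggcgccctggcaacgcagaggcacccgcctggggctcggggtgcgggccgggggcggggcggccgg
Alpl internal start: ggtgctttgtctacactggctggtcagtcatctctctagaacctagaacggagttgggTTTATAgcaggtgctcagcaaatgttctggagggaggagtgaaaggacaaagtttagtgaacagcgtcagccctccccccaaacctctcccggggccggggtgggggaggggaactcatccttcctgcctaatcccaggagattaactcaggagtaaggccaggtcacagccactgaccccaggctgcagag
Pth1r, also on the minus strand, used 2 starts at once. The window of Pth1r-202 is chr9:110743687-110743936, and that of Pth1r-201 is printed up to the first annotated exon base, chr9:110742720-110742860. Neither holds a searched motif, so both are in lower case.
Pth1r-202 start: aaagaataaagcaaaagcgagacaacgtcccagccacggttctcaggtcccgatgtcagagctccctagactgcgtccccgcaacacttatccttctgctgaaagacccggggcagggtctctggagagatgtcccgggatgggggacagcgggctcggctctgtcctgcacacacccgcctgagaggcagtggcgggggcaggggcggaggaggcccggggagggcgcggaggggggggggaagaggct
Pth1r-201 start: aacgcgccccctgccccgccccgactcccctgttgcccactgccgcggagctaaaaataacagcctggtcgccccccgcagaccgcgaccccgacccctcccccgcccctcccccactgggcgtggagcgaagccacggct
Ibsp and Spp1, both on the plus strand of chromosome 5, are shown because both were lower in replicate 2. The Ibsp stretch, chr5:104299257-104299286, is the 30 bases before its RefSeq start and lies inside Ibsp-201 of GENCODE, which starts farther upstream, and the Spp1 window is chr5:104434861-104435110. Capitals mark the TATA box on either strand and the RUNX core ACCACA.
Ibsp before its RefSeq start: ggTTTATAgtcagcaagagcaagtgaatga
Spp1 start: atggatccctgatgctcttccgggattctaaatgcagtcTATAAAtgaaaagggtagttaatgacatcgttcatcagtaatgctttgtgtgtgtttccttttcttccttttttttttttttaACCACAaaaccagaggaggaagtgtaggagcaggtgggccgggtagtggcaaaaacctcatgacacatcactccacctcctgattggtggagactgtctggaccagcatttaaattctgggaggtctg

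Short motifs were searched on both strands of the 250 bases before each start. The RUNX core was ACCACA, read as TGTGGT on the other strand, and was held by 14.0% of all 32851 windows of this length. The TATA box was TATAAA, read as TTTATA on the other strand, and was held by 12.4%. The cAMP response element TGACGTCA, a palindrome, was held by 1.55%. The motifs shared no bases in any member's window. The RUNX core was found in 3 of the 13 windows, those of Spp1, Enpp1 and the first start of Slc20a1. The letters of the TATA box were found, at any position, in 3 windows, those of Ibsp, the first Spp1 start and the internal Alpl start. No window held TGACGTCA. The TTTATA of Ibsp began 28 bases before the RefSeq start, and that of Alpl 192 bases before the internal start. In Spp1 the TATAAA began 211 bases before the RefSeq start and the ACCACA 128 bases before it. The windows of Ibsp and of the first Spp1 start each had 43.6% G+C, with 2 and 3 CpG sites, against a median of 52.4% and 6 sites over all windows. The upstream window of Alpl had 68.4% G+C and 20 CpG sites, those of Pth1r-202 and Pth1r-201 had 16 and 22, and that of Phospho1 had 34. These matches and compositions are descriptions of sequence and were not tied to the RNA levels by a test.

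All 10 genes were detected at 1 TPM or more in both libraries, where 33.8% of all genes and 62.8% of protein-coding genes were. Their mean levels ran from 6.03 ± 0.0707 TPM (SD, n = 2) for Enpp1 to 493 ± 72.9 TPM (SD, n = 2) for Mgp, and from rank 10655 to rank 214 among 21474 protein-coding genes. The 4 genes at the top, Mgp, Pth1r, Ibsp and Spp1, kept the same order in both libraries, as did Pthlh and Enpp1 at the bottom. Phospho1, Panx3, Slc20a1 and Alpl lay between 26.1 and 48.5 TPM in all measurements and changed places.

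**Figure D1:**
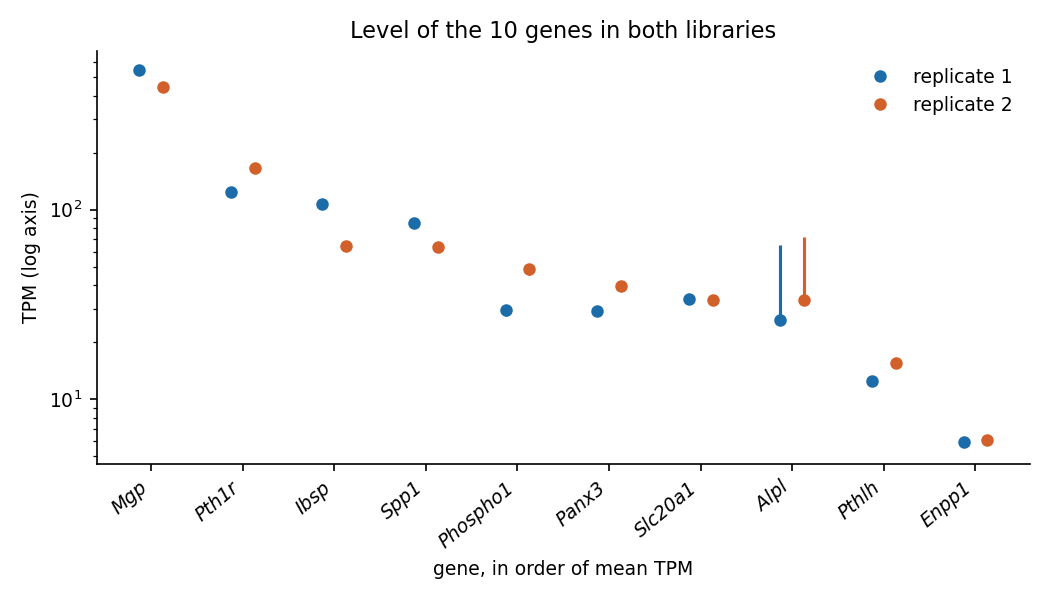
Deposited TPM (log axis) of the 10 genes in replicate 1 and replicate 2, in order of mean level; vertical lines span the deposited lower and upper bounds of TPM, which are hidden by the points except for Alpl. Mgp stands highest at 545 and 442 TPM, and Enpp1 lowest at 5.98 and 6.08 TPM.

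The receptor gene of the PTHrP signal was far more abundant than the ligand gene. Pthlh (ENSMUSG00000048776, chromosome 6, 147252101 to 147264183), which encodes PTHrP, had 12.5 TPM in replicate 1 and 15.6 TPM in replicate 2, from 1320 and 1495 counts. Pth1r (ENSMUSG00000032492, chromosome 9, 110722085 to 110747145), the G protein-coupled receptor of PTHrP and of parathyroid hormone, had 124 and 167 TPM. The levels of ligand and receptor did not overlap, and the receptor stood 10.4-fold above the ligand by mean TPM (difference in log2(TPM + 1) 3.28, 95% interval 2.74 to 3.82, limma). The related hormone gene Pth had 0 counts in both libraries. Pth2r, the receptor related to Pth1r, had 54 and 41 counts, or 0.33 and 0.27 TPM, and Pth1r was 485-fold above it by mean TPM. Of these ligand and receptor genes, Pthlh and Pth1r were the ones at 1 TPM or more.

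Ihh, the hedgehog ligand of the loop, was above Pthlh. Its levels were 25.4 and 33.7 TPM, above both levels of Pthlh (Pthlh minus Ihh in log2(TPM + 1) -1.02, 95% interval -1.52 to -0.52, limma). Of the 25 further genes of the PTHrP and Ihh pathway, 23 reached 1 TPM in both libraries and the others were Pth and Pth2r. The list was led by Gnas, the stimulatory G protein subunit downstream of Pth1r, at 2391 and 2397 TPM. Subunits of its effector kinase PKA followed, Prkar1a at 161 and 166 TPM and Prkaca at 109 and 115 TPM. Gli1, a target of hedgehog signalling, had 88.5 and 119.9 TPM.

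Enzymes and transporters of phosphate formed the middle of the range. Alpl (ENSMUSG00000028766, chromosome 4, 137741733 to 137796384), the tissue-nonspecific alkaline phosphatase that splits pyrophosphate, had 26.1 and 33.3 TPM. Phospho1 (ENSMUSG00000050860, chromosome 11, 95824499 to 95832140), which frees phosphate from phosphocholine inside matrix vesicles, had 29.6 and 48.5 TPM. The levels of these phosphatase genes overlapped between libraries (Alpl minus Phospho1 in log2(TPM + 1) -0.35, 95% interval -0.96 to 0.26, limma). Phospho1 exceeded Smpd3, the sphingomyelinase gene of the same vesicle pathway, by 2.46-fold in mean TPM (log2(TPM + 1) difference 1.21, 95% interval 0.62 to 1.81, limma). Smpd3 itself had 14.2 and 17.5 TPM.

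The pyrophosphate-making enzyme was the lowest of the set. Enpp1 (ENSMUSG00000037370, chromosome 10, 24637914 to 24712159) had 5.98 and 6.08 TPM, and the libraries differed by less than the deposited bounds of either. Alpl, which removes the product of Enpp1, stood 4.93-fold above it by mean TPM (log2(TPM + 1) difference 2.12, 95% interval 1.66 to 2.58, limma). Ank, which exports pyrophosphate, had 13.7 and 16.7 TPM and was above Enpp1 (Enpp1 minus Ank -1.20 in log2(TPM + 1), 95% interval -1.63 to -0.76, limma).

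Both genes of the sodium-phosphate cotransporters of the SLC20 family were present at like levels. Slc20a1 (ENSMUSG00000027397, chromosome 2, 129198764 to 129211616) had 34.0 and 33.2 TPM, and Slc20a2 had 30.3 and 35.4 TPM. Their order changed between the libraries, and their difference of 0.04 in log2(TPM + 1) had a 95% interval of -0.42 to 0.49 (limma). Panx3 (ENSMUSG00000011118, chromosome 9, 37659902 to 37669235), a pannexin channel gene of maturing chondrocytes and osteoblasts, had 29.2 and 39.6 TPM. Panx1, its broadly expressed relative, had 26.0 and 32.6 TPM, which overlapped the levels of Panx3 (difference 0.22, 95% interval -0.31 to 0.74, limma). Panx2 had 1.67 and 1.57 TPM. Of the 10 further genes of phosphate and pyrophosphate handling, 9 reached 1 TPM in both libraries, led by the annexins Anxa2 at 633 and 499 TPM, Anxa6 at 234 and 222 TPM and Anxa5 at 227 and 218 TPM, which bind calcium and membranes and are also made by many other cells.

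Matrix genes that bind mineral were the most abundant members with Pth1r. Mgp (ENSMUSG00000030218, chromosome 6, 136872435 to 136875823), the matrix Gla protein that keeps cartilage and arteries free of mineral, had 545 and 442 TPM. Ibsp (ENSMUSG00000029306, chromosome 5, 104299171 to 104311469), the bone sialoprotein of mineralizing matrix, had 107 and 64.3 TPM. Spp1 (ENSMUSG00000029304, chromosome 5, 104435118 to 104441050), osteopontin, which inhibits crystal growth and also binds cells, had 85.1 and 64.0 TPM. Mgp was 6.62-fold above Spp1 by mean TPM (log2(TPM + 1) difference 2.72, 95% interval 2.12 to 3.31, limma), while Spp1 and Ibsp overlapped (Spp1 minus Ibsp -0.16, 95% interval -0.82 to 0.49, limma). Spp1 is also made by macrophages and osteoclasts, and Mgp by vascular smooth muscle. The summed level of the 7 macrophage markers was 77.6 and 90.4 TPM in replicates 1 and 2, that of the 7 osteoclast markers 88.2 and 79.9 TPM, and that of the 6 smooth muscle and pericyte markers 362 and 366 TPM. Their part in the levels of Spp1 and Mgp was not tested. Most of the osteoclast sum came from Ctsk at 54.6 and 44.1 TPM and Acp5 at 18.0 and 17.0 TPM. Most of the smooth muscle sum came from Acta2, its actin, at 277 and 274 TPM, followed by Pdgfrb at 51.5 and 60.8 TPM, Tagln at 22.9 and 21.9 TPM and Rgs5 at 8.53 and 7.51 TPM, and Myh11, its myosin heavy chain, had 0.92 and 0.65 TPM.

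Ibsp and Spp1 belong to a cluster of 5 genes of acidic matrix proteins on chromosome 5, spanning 270.3 kb, and its members differed widely. Dmp1, the dentin matrix protein of osteocytes, lies 85.1 kb before Ibsp on the same strand and had 474 and 367 counts, or 2.47 and 2.07 TPM. Ibsp was 37.6-fold above Dmp1 by mean TPM (log2(TPM + 1) difference 4.68, 95% interval 4.07 to 5.29, limma). Dspp of teeth had 0 and 1 counts, and Mepe, an osteocyte gene that lies between Ibsp and Spp1, had 0 and 2 counts. Ibsp and Spp1 thus stood far above the other 3 genes of the cluster. Osteocalcin genes were low as well, Bglap with 0.79 and 0.82 TPM and Bglap2 with 0.43 and 0.50 TPM, and their reads are shared, so each is uncertain. Fgf23, the phosphate hormone gene of osteocytes, had 0.20 and 0.14 TPM.

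**Figure D2:**
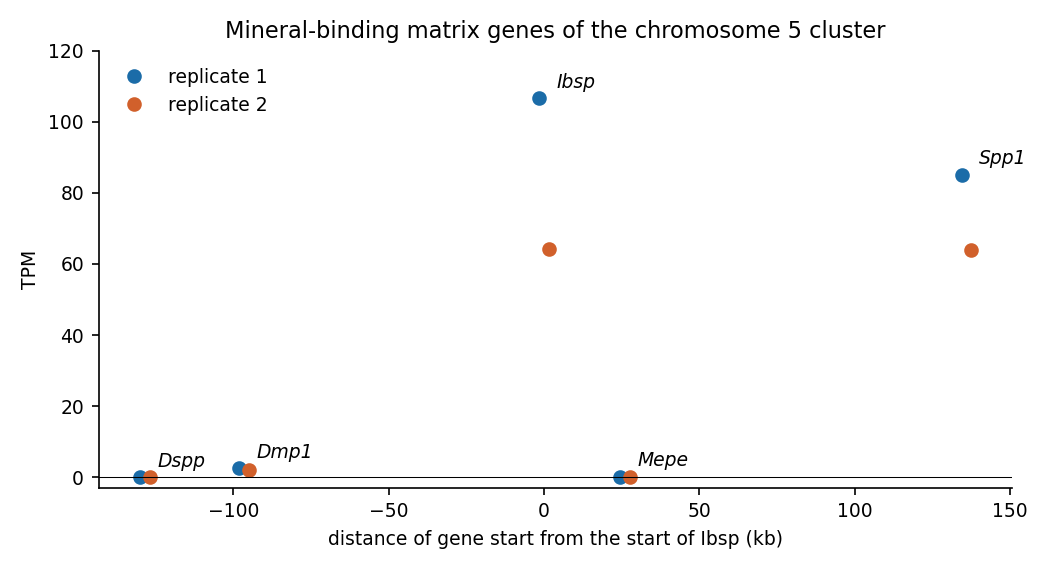
Deposited TPM of the 5 matrix genes in replicate 1 and replicate 2 by the distance of each gene's start from that of Ibsp in kb. Ibsp and Spp1 stand at 64.0 TPM or more in both libraries, and Dspp, Dmp1 and Mepe at 2.47 TPM or less.

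Of the 11 further genes of the matrix list, 5 reached 1 TPM in both libraries: Sparc, Vkorc1, Ggcx, Phex and Dmp1. Vkorc1 and Ggcx, which supply and carry out the vitamin K-dependent carboxylation that activates Mgp, had 202 and 275 TPM and 33.5 and 44.7 TPM. Phex, a phosphate-regulating peptidase gene of bone cells, had 5.76 and 5.67 TPM. Sparc, osteonectin, had 1456 and 1997 TPM, although its scaled counts were 1.05-fold lower in replicate 2.

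Col10a1, the collagen of hypertrophic cartilage, had 137 and 143 TPM. Of the 10 members, 8 were below it in both libraries and Mgp alone was above it in both, at 3.98 and 3.09 times its TPM. Pth1r was not separated from it beyond the spread and changed sides between libraries (difference 0.04 in log2(TPM + 1), 95% interval -0.52 to 0.60, limma). Ibsp was lower than Col10a1, at 0.778 and 0.450 of its TPM (difference -0.75, 95% interval -1.38 to -0.12, limma), and Alpl was at 0.191 and 0.233 of it (difference -2.21, 95% interval -2.72 to -1.70, limma).

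In the order of the 10 members, 5 of the 9 neighbouring pairs had a 95% interval of the difference that excluded 0, namely Mgp over Pth1r, Pth1r over Ibsp, Spp1 over Phospho1, Alpl over Pthlh and Pthlh over Enpp1. The steps from Ibsp to Spp1, Phospho1 to Panx3, Panx3 to Slc20a1 and Slc20a1 to Alpl were not beyond the spread. Of the 15 pairs set by gene function in which both genes had counts, 10 excluded 0 and 5 did not. Each interval stands alone, with no adjustment over the 25 pairs, and takes the errors of both genes as independent although the libraries are common to them. Where the genes of a pair moved in opposite directions, the interval can be too narrow. Pth1r minus Ibsp was 0.22 in replicate 1 and 1.36 in replicate 2, and Spp1 minus Phospho1 was 1.49 and 0.39. When low genes were kept in the limma fit, 3 of the 9 neighbouring pairs excluded 0, the steps from Pth1r to Ibsp and from Spp1 to Phospho1 being lost, as were Ibsp against Col10a1 and Phospho1 against Smpd3. In CPM, with no length scaling, Mgp was below Pth1r, Pthlh below Enpp1 and Phospho1 below Smpd3.

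**Figure D3:**
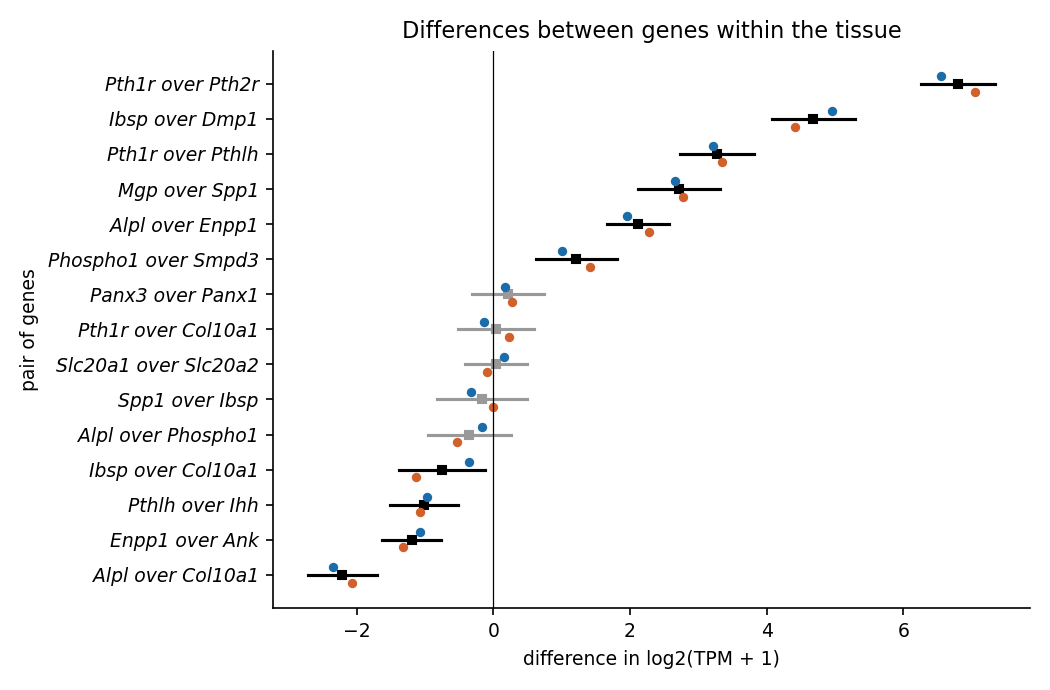
Difference in log2(TPM + 1) between the genes of 15 functional pairs; squares and lines are means with 95% limma intervals (black where they exclude 0, grey otherwise), and blue and orange points are replicates 1 and 2. Pth1r over Pth2r lies farthest to the right at 6.80, and Alpl over Col10a1 farthest to the left at -2.21; the pair of Pthlh with Pth, which had 0 counts, is not drawn.

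Between the libraries, the signal and phosphatase genes were higher in replicate 2, and the mineral-binding matrix genes were lower. By an exact two-sided binomial test on counts adjusted over all 20379 genes tested, 9 of the 10 members differed, 6 higher and 3 lower in replicate 2. Of all genes tested, 60.1% were called, 30.1% higher and 29.9% lower, so a call is common and compares 2 libraries, not conditions. Calls were more common still among the 11584 genes whose mean TPM, like that of every member, was 5 or more. Of these, 4857 were called higher, 4421 lower and 2306 not at all. At 1.5-fold only Ibsp passed, lower in replicate 2. In either direction 18.3% of all genes tested passed it, and 7.54% of the 11584 whose mean TPM was 5 or more, 1.53% higher and 6.02% lower. Of those 11584 genes 51.8% were higher in replicate 2 at any size, as were 6 of the 10 members. The median size of the log2 ratio was 0.41 for the members and 0.20 for the 11584 genes.

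Of the 6 members called higher in replicate 2, Slc20a1 had the smallest ratio and is described last. Scaled counts (CPM after TMM factors) of Pth1r were 171 and 229, a ratio of 1.34 with a 95% counting interval of 1.31 to 1.36. The ratio was 1.41 for Phospho1 (1.34 to 1.48), 1.35 for Panx3 (1.30 to 1.40), 1.26 for Alpl (1.21 to 1.31) and 1.23 for Pthlh (1.14 to 1.32). Of the same 11584 genes, between 11.9% and 33.3% had a log2 ratio at least as large as these 5 in either direction. Rises alone were less common. All 5 log2 ratios lay above the 75th percentile of those genes, 0.201. That of Phospho1, 0.493, also lay above the 95th percentile, 0.449, and the other 4 lay below it. Adjusted p was 2.26e-07 for Pthlh and smaller for the other 4 (exact binomial test).

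The 3 matrix genes went the other way. Ibsp had 135 and 80.6 CPM, 1.67-fold lower in replicate 2 (95% counting interval 1.63 to 1.72), a ratio reached by 3.86% of the 11584 genes. Spp1 had 69.6 and 51.9 CPM, 1.34-fold lower (1.30 to 1.39), and Mgp 147 and 112 CPM, 1.31-fold lower (1.28 to 1.35). The TPM of Spp1 was 0.799 of that of Ibsp in replicate 1 and 0.995 of it in replicate 2. Within a library the TPM of Pth1r was 1.17 times that of Ibsp in replicate 1 and 2.60 times in replicate 2, and Panx3 went from 0.274 to 0.616 of Ibsp.

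Enpp1 and Slc20a1 were close to even. Enpp1 had 25.7 and 25.6 CPM, a ratio of 0.997 with a counting interval of 0.946 to 1.05 (adjusted p = 0.967, exact binomial test). Slc20a1 passed the test with a ratio of 1.05 in scaled counts (adjusted p = 0.0116, exact binomial test), but its TPM was lower in replicate 2, a log2 ratio of -0.032, so its direction depends on the scale, and it did not pass when counts were scaled by library size alone. In TPM Phospho1 also passed 1.5-fold, at 1.64.

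**Figure D4:**
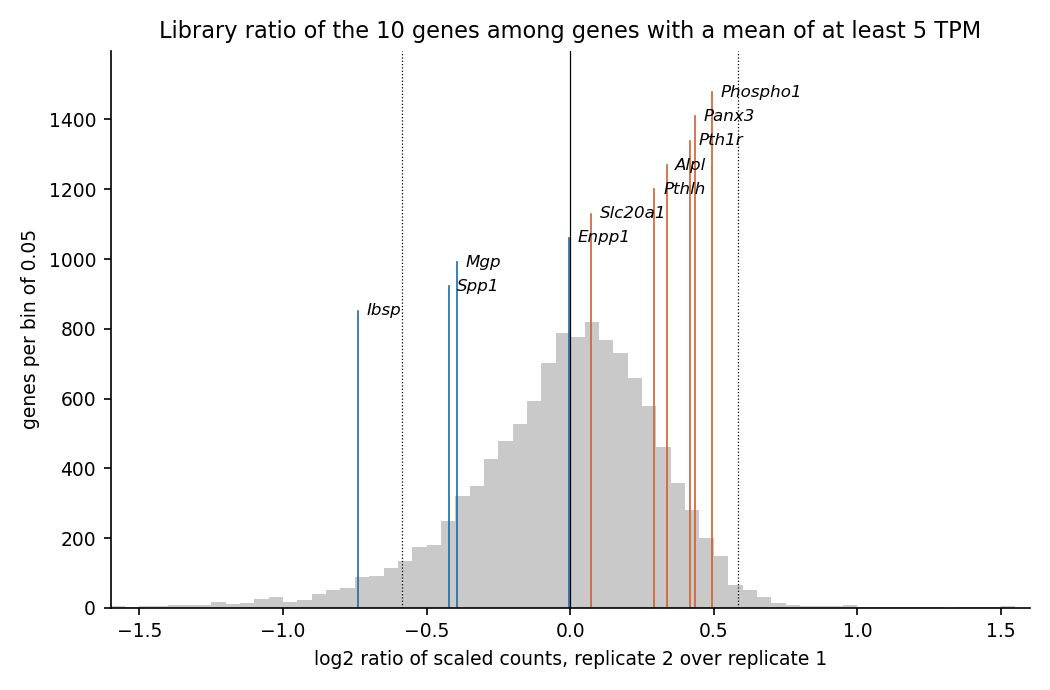
Log2 ratio of scaled counts, replicate 2 over replicate 1, for the 11584 genes of 5 TPM or more on average (grey bars, genes per bin) and for the 10 members (labelled lines, orange above 0 and blue below); dotted lines mark 1.5-fold. Ibsp lies outside the dotted lines, at -0.74, and the other 9 members lie inside.

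Genes around the members showed both directions, where 30.1% of all genes tested were called higher and 29.9% lower. At a mean of 5 TPM or more, 4857 of 11584 genes were called higher and 4421 lower. Of the 24 tested genes of the PTHrP and Ihh pathway, 20 were called higher and 2 lower in replicate 2, with a median log2 ratio of 0.25 among the 23 detected, against 0.01 for the 11584 genes above. Of the phosphate and pyrophosphate genes 4 were called higher and 5 lower, and of the matrix genes 2 higher and 3 lower, with medians of 0.01 and -0.08. Ihh was 1.37-fold higher, Gli1 1.35-fold and Sox9, the regulator of chondrogenesis, 1.54-fold (58.4 and 90.2 TPM). Runx2 and Sp7, transcription factors of hypertrophy and of bone, were 1.38-fold and 1.43-fold higher. Of the 6 hypertrophic markers 5 were called higher and 1 lower in replicate 2. The ratios of the 5 ran from 1.04 for Vegfa and Col10a1 to 1.38 for Runx2. The lists share genes, so their counts are not separate. Ihh, Mef2c and Runx2 are in both the pathway and the hypertrophic lists, and Runx2 is also an osteoblast marker. Sox9 is also a chondrocyte marker, and Dmp1 and Bglap are in both the matrix and the osteoblast lists. Mmp13, the collagenase of terminal hypertrophic cartilage, was 2.18-fold lower with 552 and 234 counts, or 2.97 and 1.37 TPM. It was thus the only hypertrophic marker that was lower in replicate 2.

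Markers of other tissues moved between the libraries too. Of 5 epidermal markers, 4 were called lower in replicate 2, where 29.9% of all genes tested were. Of the 11584 genes of 5 TPM or more on average, 4421 were called lower. The 5 epidermal markers had a summed level of 991 and 677 TPM, and Krt1 and Krt10 were 1.64-fold and 1.90-fold lower. Trp63, the epidermal transcription factor, had 22.9 and 22.6 TPM. Keratinocytes also make Pthlh, and their part in its level was not tested. Of the 5 skeletal muscle markers 2 were called higher and 3 lower, with a summed level of 2167 and 2116 TPM. The embryonic myosin gene Myh3 was 1.74-fold lower, while Myod1 of the same list was 1.35-fold higher. Osteoblast markers numbered 4 higher and 1 lower of 7 tested, with a summed level of 1254 and 1373 TPM. Most of that sum came from Col1a1 at 1181 and 1283 TPM. Chondrocyte markers numbered 7 higher and 1 lower of 8, with 2511 and 2962 TPM in sum. Of the endothelial markers 1 was called higher and 4 lower of 5, of the macrophage markers 4 higher and 1 lower of 7, and of the osteoclast markers 2 higher and 1 lower of 7. Oscar, a receptor gene of osteoclasts, was 1.69-fold higher in replicate 2 at 0.90 and 1.56 TPM. Ctsk, the highest of the osteoclast markers, was 1.26-fold lower. The part of tissue composition in the ratios of the 10 genes was not tested.

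Transcript shares, the percent of a gene's TPM given to each annotated transcript, differed in how many forms carried a gene. Pthlh, Ibsp and Mgp had 1 transcript each in the tables. Alpl-201, from the upstream start shown above, held 98.3% and 97.7% of Alpl, and Alpl-205, from the internal start, had 0 counts in both libraries. Panx3-201 held 99.6% and 99.9%, and Enpp1-202 held 94.1% and 90.2%.

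Pth1r was divided between both printed starts in like parts in each library. Pth1r-201 held 62.2% and 64.4%, or 77.3 and 108 TPM, and Pth1r-202 held 37.8% and 35.6%, or 46.9 and 59.4 TPM. Both transcripts were higher in replicate 2, and neither start alone carried the difference. Another RefSeq start lies farther upstream, and no transcript in the tables began there. The annotated span of Pth1r overlaps Myl3 on the opposite strand, which had 1201 and 773 counts, and the libraries were strand-specific.

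Spp1, Phospho1 and Slc20a1 had shares that differed between the libraries. Spp1-201 held 94.6% of Spp1 in replicate 1 and 83.8% in replicate 2, and Spp1-205, which starts 3 bases farther on, held 4.10% and 15.1%. In TPM Spp1-201 went from 80.5 to 53.6 and Spp1-205 from 3.49 to 9.62, so these forms moved in opposite directions while the gene as a whole was lower. Spp1-204, from an internal start, held 0.67% and 1.03%.

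Phospho1-201 held 62.4% and 50.9%, Phospho1-202 26.0% and 21.3%, and the short Phospho1-203, which begins inside the gene, 11.7% and 27.9%. Phospho1 lies within the annotated span of Zfp652 on the same strand, and the counts of both genes were fractional, so reads were shared and the level of Phospho1 is uncertain. Its counts were 1.41-fold higher in replicate 2 and its TPM 1.64-fold higher, with effective lengths of 1215 and 1036 nucleotides. Slc20a1-201, the full coding transcript, held 57.8% and 64.9%, and Slc20a1-205, annotated as a processed transcript, 21.0% and 24.6%.

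**Figure D5:**
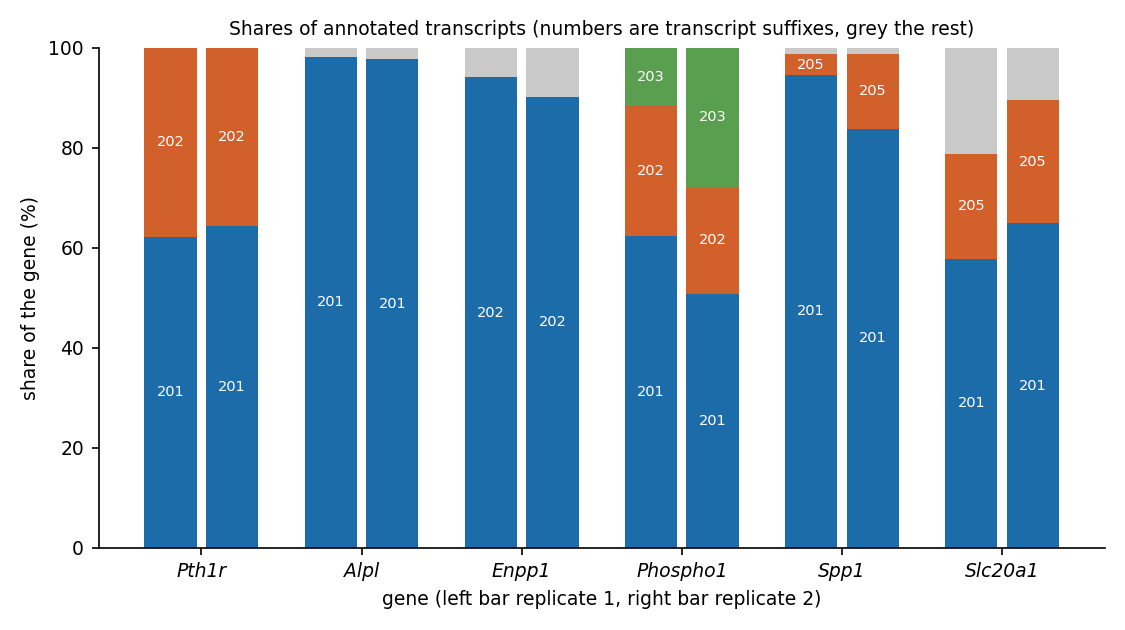
Share of each annotated transcript in percent of its gene for 6 genes, replicate 1 on the left and replicate 2 on the right of each pair; coloured parts are transcripts with at least 10% in either library, numbered by their suffix, and grey is the rest. Alpl is almost wholly 201, Pth1r is divided in like parts in both libraries, and the 203 part of Phospho1 and the 205 part of Spp1 are larger in replicate 2.

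The estimate of Alpl depended on how its shortest annotated form was treated. The deposited bounds of Alpl ran from 25.5 to 64.7 TPM in replicate 1 and from 32.5 to 71.8 TPM in replicate 2, so the upper bounds lay far above its TPM, and its posterior mean TPM was 39.1 and 45.8. The posterior mean gave 32.7% and 27.3% of Alpl to Alpl-203, a transcript of 151 nucleotides with 0 counts in both libraries. For the other 9 genes the deposited bounds lay within a few TPM of the value, except for Mgp, where they ran from 532 to 549 and from 429 to 445 TPM.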

How the data were processed

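The authors deposited, for each of the 2 limb libraries (101-nucleotide paired ends, strand-specific, per the labels), tables of genes and of transcripts on mm10 and GENCODE M4, per the text deposited with the tables. The quantification program and its settings are not given in the sources used here. Per the file headers, the tables hold the expected count (estimated reads), TPM and posterior mean TPM with its bounds, whose level is not stated, and for transcripts the percent of the gene. Rows of spike-ins, phiX and transfer RNAs were not used; ERCC rows took 2.39% and 2.36% and phiX 1.35% and 1.94% of deposited counts.

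Names and coordinates came from GENCODE M21 (GRCm38), joined by identifier; 884 of 43346 genes had no match. Both libraries form 1 group, so no test between conditions could be made. Library ratios used expected counts, rounded for the test, with TMM factors of 1.01 and 0.992 (edgeR 4.0.16), a prior count of 0.5 and an exact conditional binomial test over genes with at least 10 counts, Benjamini-Hochberg adjusted at 0.05. Counting intervals assume Poisson error alone. Gene pairs used an intercept-only limma fit (3.58.1, with trend) to log2(TPM + 1) over 15057 genes (mean TPM of 1 or more, plus all genes of pairs), with 5.32 moderated degrees of freedom. Counts of 9 of the 10 members were within 0.005 of a whole number; Phospho1 was not. The alternatives were DESeq2 1.42.0 size factors, other thresholds, filters and scales, and single libraries.

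The members and lists were chosen with earlier results of these data known. Named were all members and, of the lists of pathway, phosphate, matrix and pannexin genes, the genes of a pair, the 4 highest, those under 1 TPM where 5 or fewer, and those past 1.5-fold at a mean of 1 TPM or more. The rule also covers the marker lists, of which only some such genes are named and the rest stand in counts and sums. Trp63, Myod1, Myl3, Zfp652 and Ahsg were chosen after their values were seen. Promoter windows came from RefSeq (GRCm38.p6).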

Additional observations from a re-analysis of the deposited data

How the results depend on the processing

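All 10 members stayed detected at 5 TPM and with posterior mean TPM (10 to 10). Detection at 0.5 TPM and in either library alone follows from detection at 1 TPM in both libraries. The 9 members past the binomial test stayed 9 with DESeq2 size factors and with no filter, and were 8 with library size alone, where Slc20a1 was lost. The 1 member past 1.5-fold became 0 at 2-fold and 2 in deposited TPM, where Phospho1 joined Ibsp at a log2 ratio of 0.71 and Slc20a1 turned to a log2 ratio of -0.032. Without the filter on low values, 3 in place of 5 neighbouring pairs excluded 0; the cause was not tested. In CPM, which also holds transcript length, the log2 differences turned for Alpl minus Phospho1 (0.64), Slc20a1 minus Slc20a2 (-0.43), Pth1r minus Col10a1 (-0.48), Phospho1 minus Smpd3 (-0.85), Mgp minus Pth1r (-0.62), Phospho1 minus Panx3 (-0.86) and Pthlh minus Enpp1 (-0.91). Posterior means moved Alpl to 42.4 TPM and Alpl-201 to 67.7%. Of the 290 recomputed values of single genes, transcripts and pairs, 271 were scored as unchanged. That score let some signs turn. With posterior mean TPM, Alpl minus Phospho1 went from -0.35 to 0.16 and Slc20a1 minus Alpl from 0.18 to -0.33. The count also holds values that could not change, such as shares of genes with 1 transcript. Levels and shares from a single library are the replicates themselves and lie within their spread by construction. A ratio between the libraries cannot be recomputed without one of them. No paired analysis between conditions was possible because there is only 1 group, and the gene pairs were not analysed as paired within libraries. Depth limits Pth, Dspp and Mepe, with 0 to 2 counts.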

Other observations

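Ahsg, the gene of the serum mineral inhibitor fetuin-A, which the liver makes, had 107 counts in replicate 1 and 22 in replicate 2, or 1.12 and 0.25 TPM. It was 4.42-fold lower in replicate 2 (adjusted p = 1.33e-12, exact binomial test). It was chosen after its values were seen.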
